A study of Rattus norvegicus with 17 samples.

Results

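The chemokines and their receptors are described here in rat tumour tissue after treatment with NVP-BEZ235, an inhibitor of PI3K and mTOR kinases. Members were all genes whose probe set carried exactly 1 annotated symbol built from a chemokine or chemokine receptor stem (Ccl, Cxcl, Cx3cl, Xcl, Ccr, Cxcr, Cx3cr or Xcr) followed by a number. The rule found 49 of the 14506 genes with a value, 33 ligands and 16 receptors, and each had 1 probe set. It used symbols only and no measured value, but the members were chosen with earlier results of these data known.

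The series held 17 arrays from rats aged 8 months, on a mixed Sprague-Dawley white eye and Wistar-Kyoto background. All of them, controls included, carried a mutation of p27Kip1 (Cdkn1b), the gene of a cell cycle inhibitor. The sample labels call it homozygous and the series' design text heterozygous. The control group received 20 mg/kg PEG and held 7 libraries, 5 from females and 2 from males (replicates 6 and 7). The group given NVP-BEZ235 at 20 mg/kg held 6 libraries, 4 from females and 2 from males (replicates 9 and 10), and the group at 30 mg/kg held 4, 3 from females and 1 from a male (replicate 4). Length of treatment and time of sampling are not given in the sources used here. Nor do the labels say that each library came from a separate animal, so p-values measure the spread between these libraries, and their number limits the precision. Replicate numbers ran from 1 to 7 in controls, from 1 to 4 at 30 mg/kg and from 5 to 10 at 20 mg/kg.

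The tissue was labelled pituitary adenoma, whereas pheochromocytoma, which arises from adrenal chromaffin cells, is the tumour named in the title of the series. Per library, the mean log2 value of 7 chromaffin markers lay between 9.84 and 10.82, and that of 7 adrenal cortex markers between 10.11 and 11.66. The mean over 7 pituitary hormone genes lay between 4.06 and 5.06, near or below the array median. The catecholamine enzyme Th reached 12.10 ± 0.31 in controls (SD, n = 7), against 3.97 ± 0.45 for growth hormone, Gh1. The markers thus go against the tissue label. Adrenal cortex markers were high as well, and the share of cortex in the samples was not measured. For short, the samples are called tumour libraries below.

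Chemokines are small secreted proteins that guide leukocytes along concentration gradients, and they are named by the spacing of their first cysteines (CC, CXC, CX3C and XC). Their receptors are G protein-coupled receptors of leukocytes, endothelium and some tumour cells, and they signal partly through PI3K. Homeostatic chemokines such as Cxcl12 and Ccl19 position cells in resting tissue. Inflammatory ones are switched on by interferons, by cytokines of the type 2 response or through NF-kappaB.

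Promoters of 5 CXC ligands are shown because they form 2 neighbouring groups, of which 1 holds Cxcl10, lower in treated libraries, and the other Cxcl2, higher at 30 mg/kg. Cxcl11, Cxcl10 and Cxcl9, all ligands of Cxcr3, follow each other on chromosome 14 with no other protein-coding gene between them. Cxcl2 and Cxcl1, ligands of the neutrophil receptor Cxcr2, lie next to each other further along. Each sequence is the 250 bases before the annotated start, 5′ to 3′ on the gene's strand, from RefSeq on GRCr8. Capitals mark matches to motifs of factors that act on chemokine genes.
Cxcl11, chr14:15973478-15973727 (plus strand): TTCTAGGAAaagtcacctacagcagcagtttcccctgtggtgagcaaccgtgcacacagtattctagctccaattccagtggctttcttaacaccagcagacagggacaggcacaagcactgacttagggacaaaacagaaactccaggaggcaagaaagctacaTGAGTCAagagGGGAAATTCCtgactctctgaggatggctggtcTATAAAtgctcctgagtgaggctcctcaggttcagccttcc
Cxcl10, chr14:15988816-15989065 (plus strand): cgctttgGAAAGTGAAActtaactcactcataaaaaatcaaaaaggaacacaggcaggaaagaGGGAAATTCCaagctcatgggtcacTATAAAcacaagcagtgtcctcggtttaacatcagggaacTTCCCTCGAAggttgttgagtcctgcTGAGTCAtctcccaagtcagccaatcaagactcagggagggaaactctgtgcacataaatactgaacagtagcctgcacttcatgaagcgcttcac
Cxcl9, chr14:16006916-16007165 (plus strand): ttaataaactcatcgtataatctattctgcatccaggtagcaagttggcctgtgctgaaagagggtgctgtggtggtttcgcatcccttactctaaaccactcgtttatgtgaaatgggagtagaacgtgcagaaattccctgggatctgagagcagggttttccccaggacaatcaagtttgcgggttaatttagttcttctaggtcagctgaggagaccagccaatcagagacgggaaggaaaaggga
Cxcl2, chr14:17467256-17467505 (minus strand): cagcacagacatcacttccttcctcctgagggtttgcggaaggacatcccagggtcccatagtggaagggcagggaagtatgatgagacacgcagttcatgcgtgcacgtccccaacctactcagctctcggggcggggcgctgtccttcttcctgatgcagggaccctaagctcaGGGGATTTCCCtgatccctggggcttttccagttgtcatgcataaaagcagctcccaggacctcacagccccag
Cxcl1, chr14:17479322-17479571 (minus strand): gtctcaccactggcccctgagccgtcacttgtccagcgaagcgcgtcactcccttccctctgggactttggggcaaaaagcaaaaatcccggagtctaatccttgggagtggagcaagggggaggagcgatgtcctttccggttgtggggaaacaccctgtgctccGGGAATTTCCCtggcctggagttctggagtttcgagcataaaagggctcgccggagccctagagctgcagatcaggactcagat

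The motifs searched on both strands were the interferon response element ISRE (GAAA, any 2 bases, GAAA), the STAT element GAS (TTC, any 3 bases, GAA), the STAT6 element (TTC, any 4 bases, GAA), AP-1 (TGANTCA) and the NF-kappaB site kappaB. A TATA box (TATAAA) was searched on the gene's strand. The Cxcl10 window held 1 match each to ISRE, kappaB, STAT6 and AP-1 and a TATAAA. The Cxcl11 window held GAS, kappaB, AP-1 and a TATAAA, and the Cxcl9 window held no match. In Cxcl1 and Cxcl2 the capitals are 2 overlapping kappaB matches, beginning at base -84 in Cxcl1 and base -74 in Cxcl2, counted back from the start.

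RefSeq promoters were matched for 38 of the 49 members. Of these 38, 8 held a kappaB match (Ccl20, Ccl9, Ccr3, Cxcl1, Cxcl10, Cxcl11, Cxcl2 and Cxcl6), a share of 21.1% against 3.54% of all 33469 promoters of that length. AP-1 was matched in 18.4% of the member windows against 6.34% of all, and TATAAA in 23.7% against 8.06%. For ISRE the shares were 5.3% and 3.41%, for GAS 10.5% and 7.67%, and for STAT6 7.9% and 6.25%. These matches describe letters in a window and not binding. Ccl2, Ccl3, Ccl4, Ccl5, Ccl11, Ccr4, Ccr7, Ccr9, Ccr10, Cxcl3 and Cxcr5 had no entry.

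Values are log2 intensities after RMA, so a difference of 1 is a doubling. A probe set's value depends on its probes as well as on the amount of RNA, so values were set against the median of the array and not against other genes. The array median averaged 5.02 and ranged from 4.95 to 5.11. In 21 members the mean over the 17 arrays lay above the mean array median (42.9%, against 60.1% of all genes), and in 28 it lay below. Of the ligands 17 of 33 were above, and of the receptors 4 of 16. In 12 members every array was above its own median, in 17 some arrays were, and in 20 none was.

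The ligands above the median were Ccl11, Cx3cl1, Ccl19, Cxcl14, Ccl6, Ccl5, Cxcl16, Cxcl10, Ccl27, Ccl2, Cxcl12, Ccl7, Ccl3, Ccl17, Cxcl17, Cxcl1 and Xcl1, and the receptors Cxcr4, Cx3cr1, Ccr7 and Ccr10. Their means over all arrays ran from 5.14 for Xcl1 to 8.77 for Ccl11. Cxcr4, the receptor of Cxcl12, was the 1 member above the upper quartile of every array, a quartile between 6.85 and 7.10. Below the median lay the ligands Ccl21, Ccl24, Ccl4, Ccl9, Ccl28, Cxcl9, Ccl20, Cxcl2, Cxcl11, Cxcl13, Cxcl3, Ccl22, Cxcl6, Ccl26, Ccl12 and Ccl25. The receptors below it were Cxcr3, Ccr1, Cxcr5, Cxcr1, Xcr1, Cxcr6, Cxcr2, Ccr6, Ccr2, Ccr4, Ccr9 and Ccr3. Differences of such dim probe sets are compressed.

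**Figure D1:**
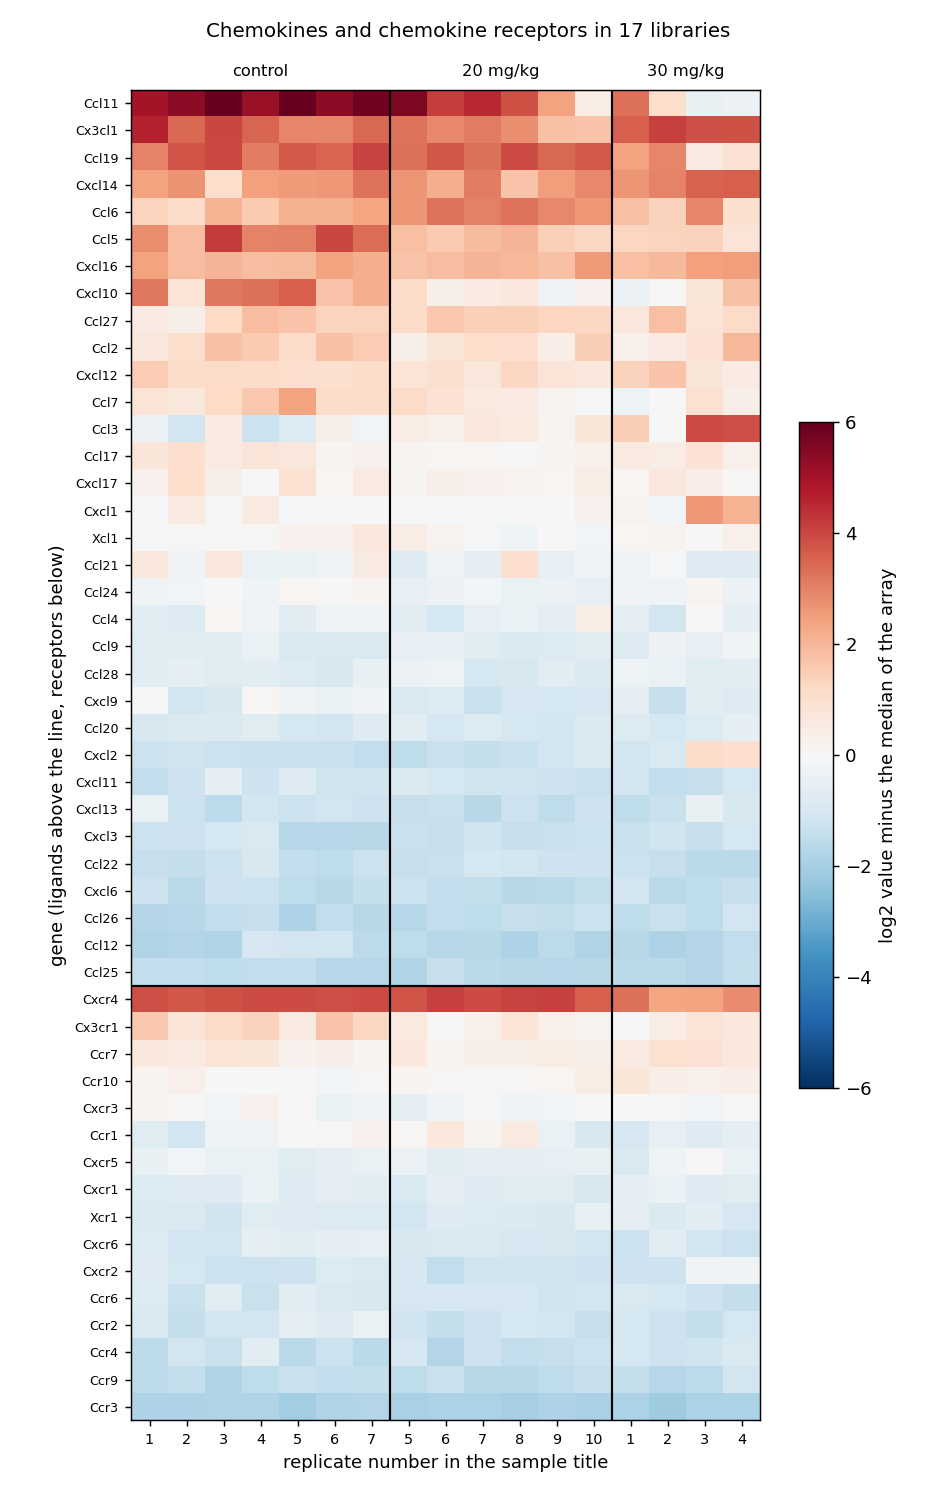
Log2 value of each of the 49 members minus the median of its array, with 1 column per library and 1 row per gene (33 ligands above the line, 16 receptors below, each ordered by mean). Red is above the array median and blue below; Ccl11 turns from dark red in the 7 controls to near white in 30 mg/kg replicates 3 and 4, and Ccl3 and Cxcl1 turn red there.

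The first comparison asked which members differed between the 10 treated and the 7 control libraries. Ccl11, Cxcl10, Ccl5 and Cx3cr1 fell, and no member rose. These 4 of 49 members (8.16%) passed an adjusted p of 0.05 in limma (Benjamini-Hochberg over all genes, sex as a term). Of all genes 1.48% passed, and 0.965% passed as lower. In sign, 33 members were lower and 16 higher in treated libraries, with a median change of -0.11 against -0.002 over all genes. Leaving out control replicate 6 or 7 left 2 members (Ccl5 and Cxcl10), and leaving out control replicate 2 gave 6. At an unadjusted p under 0.05 there were 12 lower members and 1 higher, while 14.4% of all genes lay under it. In bulk tissue, fewer cells of a type and less RNA per cell cannot be told apart.

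Ccl11 (eotaxin), a ligand of Ccr3 that attracts eosinophils, fell most. In controls it ran from 10.05 through a median of 10.47 to 11.40. At 20 mg/kg the lowest value was 5.42, the median 8.98 and the highest 10.56, and the 4 libraries at 30 mg/kg stood at 8.34, 6.18, 4.61 and 4.65. A single treated library, 20 mg/kg replicate 5, overlapped the controls, and 30 mg/kg replicates 3 and 4 were below the array median. The log2 change was -3.16 (SE 0.70, adjusted p = 0.03251), lower than the control mean in 10 of 10 treated libraries. The call was lost without any 1 of control replicates 3, 5, 6 and 7, 30 mg/kg replicate 1 or 20 mg/kg replicate 10, with adjusted p values of 0.05412, 0.05076, 0.08533, 0.09674, 0.05058 and 0.06354. It was also lost without the sex term (0.05046) and in female rats alone (change -2.52, adjusted p = 0.303).

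Within the 20 mg/kg group, Ccl11 separated by sex. The females stood at 8.81 to 10.56, and the males, replicates 9 and 10, at 7.37 and 5.42. The control males, at 10.33 and 10.73, lay inside the range of the control females. An interaction of sex and dose was not tested with 2 males. Of the other ligands of Ccr3 measured, Ccl24 and Ccl26 were dim, and Ccl5 and Ccl7, both above the array median, are described below. Ccl24 went from 4.98 ± 0.13 in controls to 4.60 ± 0.14 at 20 mg/kg (SD, n = 6) and 4.89 ± 0.23 at 30 mg/kg (SD, n = 4), and Ccl26 from 3.41 ± 0.18 to 3.50 ± 0.14 and 3.67 ± 0.16. Ccr3 itself averaged 3.12 over all arrays with a range of 2.92 to 3.30, below the lower quartile of every array. Of 11 eosinophil and mast cell markers, 0 passed in limma with 0 at an unadjusted p under 0.05, and 2 of 11 lay above the array median. Their summed level, as a mean per library, was 3.92 to 4.38 in controls, 3.89 to 4.16 at 20 mg/kg and 4.15 to 4.50 at 30 mg/kg.

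Cxcl10, an interferon-induced ligand of Cxcr3 that attracts activated T cells, had the next largest change of the 4. Controls ran from 5.92 through 8.19 to 8.60. The 20 mg/kg libraries ran from 4.77 through 5.41 to 6.13, and the 30 mg/kg libraries stood at 4.65, 5.18, 5.78 and 6.78. Control replicate 2 was the low control, below 2 treated libraries, and 30 mg/kg replicate 4 stood above control replicate 6 at 6.68. The other 5 controls lay above every treated library. The change was -2.10 (SE 0.37, adjusted p = 0.01044), lower than the control mean in 10 of 10, and no single library's removal ended the call.

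The neighbours of Cxcl10 were dim. Cxcl9 ran from 3.95 through 4.72 to 5.18 in controls and from 3.70 through 3.97 to 4.14 at 20 mg/kg, and stood at 4.47, 3.72, 4.38 and 4.25 at 30 mg/kg. Controls 2 and 3 lay within the treated range and the other 5 above it. The change of -0.56 did not pass (adjusted p = 0.1088). Cxcl11 averaged 3.94 ± 0.32 in controls, 3.83 ± 0.16 at 20 mg/kg and 3.78 ± 0.15 at 30 mg/kg, with a change of -0.13 (SE 0.12, adjusted p = 0.7135). Their shared receptor Cxcr3, found on activated T cells, averaged 4.99 ± 0.29, 4.76 ± 0.19 and 5.05 ± 0.11, with a change of -0.11 (adjusted p = 0.7768).

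Ccl5 (RANTES), made by T cells and other cells and bound by Ccr1 and Ccr3, separated the groups almost completely. Controls ran from 6.95 through 8.07 to 9.24. At 20 mg/kg the values ran from 6.20 through 6.65 to 6.99, and at 30 mg/kg they were 6.31, 6.44, 6.45 and 5.78. The lowest control, replicate 2, lay just below the highest treated library, 20 mg/kg replicate 8, and the other 6 controls were above all 10. The change was -1.73 (SE 0.26, adjusted p = 0.003764), and no single library's removal ended the call. In female rats alone it was -1.41 with an adjusted p of 0.1237.

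Cx3cr1, the fractalkine receptor of monocytes, macrophages and some lymphocytes, was the 1 receptor that fell. Controls ran from 5.59 through 6.20 to 6.71. The 20 mg/kg libraries ran from 4.98 through 5.28 to 5.77, and the 30 mg/kg libraries stood at 5.02, 5.54, 5.83 and 5.63. Control replicate 5 lay among the treated libraries and the other 6 controls above them. The change was -0.84 (SE 0.17, adjusted p = 0.02253), and the adjusted p was 0.06357 without control replicate 6 and 0.05641 without control replicate 7. Its ligand Cx3cl1 did not pass here (change -0.48, adjusted p = 0.535) and moved apart between the doses.

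**Figure D2:**
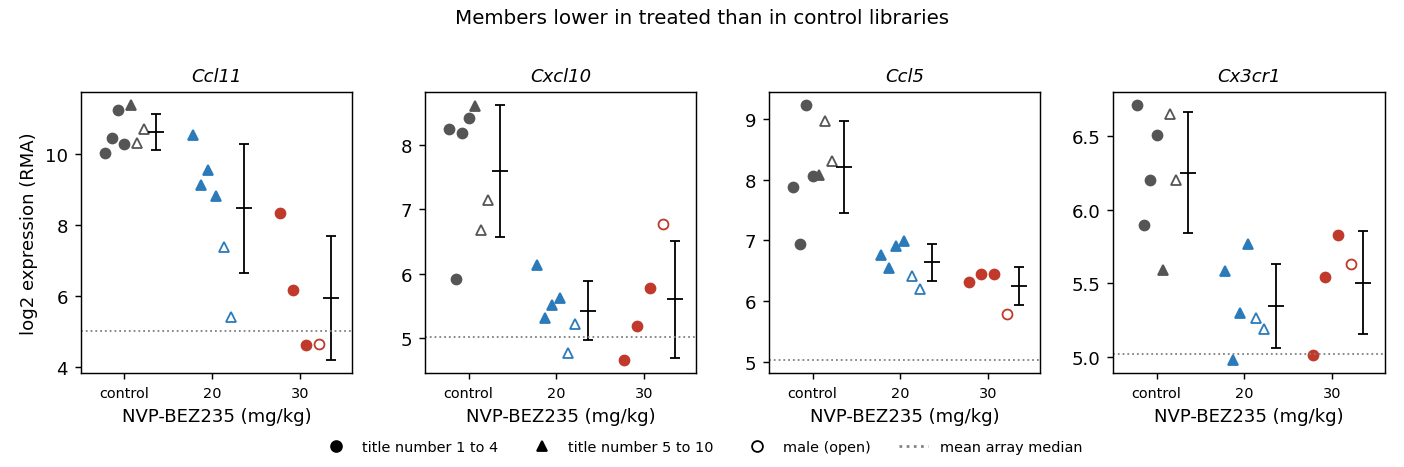
Log2 value of Ccl11, Cxcl10, Ccl5 and Cx3cr1 in each library by group (7 controls, 6 at 20 mg/kg, 4 at 30 mg/kg), with the group mean and SD to the right of the points. Circles are replicates 1 to 4, triangles replicates 5 to 10, and open symbols males; the treated points lie mostly below the controls, with Ccl11 spread from 10.56 to 4.61 among treated libraries.

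Of the other 9 members at an unadjusted p under 0.05, 5 were further CC ligands that were lower. Ccl7 and Ccl2 (both monocyte attractants) and Ccl12 sit beside Ccl11 in 1 run of genes. Ccl7 went from 5.72, 6.06 and 7.47 in controls (lowest, median and highest) to 4.86, 5.53 and 6.10 at 20 mg/kg and to 4.70, 5.09, 5.97 and 5.34 at 30 mg/kg. Treated libraries overlapped the 4 lowest controls. Its change of -0.88 missed the threshold (SE 0.23, adjusted p = 0.06359). Ccl2 went from 5.77, 6.49 and 6.82 to 5.34, 5.84 and 6.42, with 5.35, 5.62, 5.93 and 7.001 at 30 mg/kg. The last of these, replicate 4, was the highest of all 17 libraries, and the change was -0.53 (adjusted p = 0.2285).

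Ccl12 and Ccl24 were dim and overlapped between groups. For Ccl12, controls had 3.23, 3.39 and 4.10, the 20 mg/kg group 3.11, 3.29 and 3.44, and the 30 mg/kg libraries 3.39, 3.28, 3.29 and 3.55 (change -0.26, adjusted p = 0.3443). For Ccl24, which attracts eosinophils, controls had 4.82, 4.92 and 5.16, the 20 mg/kg group 4.46, 4.60 and 4.85, and the 30 mg/kg libraries 4.83, 4.87, 5.20 and 4.65 (change -0.26, adjusted p = 0.2408). Ccl17, a dendritic cell ligand of Ccr4, had 5.12, 5.71 and 6.12 in controls, 4.99, 5.15 and 5.28 at 20 mg/kg, and 5.55, 5.56, 5.94 and 5.30 at 30 mg/kg (change -0.31, adjusted p = 0.3157). In both, the 20 mg/kg libraries were low. The 30 mg/kg values of Ccl17 lay inside the control range, and those of Ccl24 reached past both of its ends.

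The receptors Ccr2, on inflammatory monocytes, and Cxcr6, on T and NK cells, were lower without passing. Ccr2 had 3.69, 4.18 and 4.56 in controls, 3.52, 3.78 and 3.93 at 20 mg/kg, and 3.95, 3.86, 3.65 and 3.93 at 30 mg/kg (change -0.35, adjusted p = 0.1268). Cxcr6 had 3.95, 4.33 and 4.52, then 3.85, 4.02 and 4.14, then 3.75, 4.46, 3.92 and 3.74 (change -0.27, adjusted p = 0.2785). For Ccr2 the 2 lowest controls lay within the treated range, and for Cxcr6 30 mg/kg replicate 2 lay among the highest controls. The 1 higher member was Ccl3, described with the 30 mg/kg libraries, at 1.60 (adjusted p = 0.1568). The remaining 36 members had changes from -0.79 (Ccl19) to 0.62 (Ccl6), none with an adjusted p under 0.3754.

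At 20 mg/kg alone, Ccl5, Cxcl10 and Cx3cr1 fell against the controls. These 3 of 49 members (6.12%) compare with 1.18% of all genes called, 0.524% as lower. Of the called genes 44.4% were lower, and 61.9% after quantile normalization. The changes were -1.57 for Ccl5 (SE 0.28, adjusted p = 0.02032), -2.16 for Cxcl10 (SE 0.42, adjusted p = 0.02213) and -0.91 for Cx3cr1 (SE 0.19, adjusted p = 0.02846). Ccl11, at -2.09 (SE 0.58), did not pass (adjusted p = 0.07797). In sign, 41 members were lower and 8 higher, with a median of -0.14 against -0.01 over all genes, of which 52.7% were lower. Against controls 5 to 7 alone, 33 were lower and 16 higher. A tilt was also present between the control sets: in controls 5 to 7 minus controls 1 to 4, 31 members were lower and 18 higher (median -0.14). The calls depended on single libraries: 0 members passed without 20 mg/kg replicate 6 (32 genes), 1 without replicate 7 (22 genes) or replicate 8 (26 genes), and 5 without control replicate 5 (470 genes), 30 mg/kg replicate 1 or 30 mg/kg replicate 4. Without 20 mg/kg replicate 6, the adjusted p was 0.0533 for Ccl5, 0.06761 for Cxcl10 and 0.0903 for Cx3cr1. Cxcl10 was also lost without replicate 7 (0.05887) or 8 (0.06588), and Cx3cr1 without any 1 of 8 further libraries (control replicates 1, 4, 6 and 7 and 20 mg/kg replicates 7 to 10).

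Cx3cl1 and Ccl6 moved in opposite directions at 20 mg/kg, each just short of the threshold. Cx3cl1 (fractalkine), held on the surface of endothelium and neurons, ran from 7.91 through 8.56 to 9.71 in controls and from 6.68 through 7.81 to 8.26 at 20 mg/kg. The 2 males were the lowest there. The change was -0.98 (SE 0.24, adjusted p = 0.05085). Ccl6, a macrophage and neutrophil product close in sequence to Ccl9, ran from 6.22 through 7.09 to 7.31 in controls and from 7.59 through 7.94 to 8.22 at 20 mg/kg, with no overlap. Its change was 1.07 (SE 0.26, adjusted p = 0.05279).

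The higher dose separated 10 of 49 members (20.4%) from the controls: Ccl11, Ccl19, Ccl5, Cxcl10, Ccl7, Cxcr4 and Cx3cr1 fell, and Ccl3, Cxcl2 and Ccr10 rose. Of all genes, 8.55% were called, 4.89% as lower and 3.66% as higher. Of the called genes 57.2% were lower, and 45.8% after median centring. In sign, 27 members were lower and 22 higher, a balance that turned to 23 and 26 after median centring. Both doses were set against the same controls. Replicates 3 and 4 at 30 mg/kg stood apart from replicates 1 and 2 in several members. Without both of them, a setting chosen after the data were seen, 4 members passed (Ccl11, Ccl7, Cxcl10 and Cxcr4) and 155 genes in place of 1240. Without replicate 4 alone, 6 members and 456 genes passed.

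Cxcr4, which holds cells in tissues rich in Cxcl12 and is found on leukocytes and endothelium among others, separated the 30 mg/kg group fully from the other 2. Controls ran from 8.82 through 8.88 to 9.02 and the 20 mg/kg libraries from 8.56 through 8.997 to 9.08. At 30 mg/kg the values were 8.35, 7.50, 7.48 and 7.85, all below every control and every 20 mg/kg library. The change against controls was -1.10 (SE 0.15, adjusted p = 0.000443). At the lower dose it was 0.01 (SE 0.13, adjusted p = 0.9753). Its ligand Cxcl12 averaged 6.18 ± 0.22 in controls, 5.83 ± 0.23 at 20 mg/kg and 6.12 ± 0.59 at 30 mg/kg, where it was 6.39 and 6.81 in replicates 1 and 2 and 5.77 and 5.52 in replicates 3 and 4. Its change at 30 mg/kg was -0.07 (adjusted p = 0.8493).

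Ccl11 at 30 mg/kg changed by -4.76 against the controls (SE 0.65, adjusted p = 0.00049), with no overlap. Ccl5 changed by -1.97 (SE 0.32, adjusted p = 0.001511), Cxcl10 by -2.01 (SE 0.47, adjusted p = 0.01506), Cx3cr1 by -0.74 (SE 0.21, adjusted p = 0.03757) and Ccl7 by -1.05 (SE 0.29, adjusted p = 0.03229). For Ccl7 the call was lost without any 1 of 6 libraries (control replicates 4, 6 and 7, 30 mg/kg replicates 1, 2 and 4), with an adjusted p of up to 0.09258. For Cx3cr1 it was lost without any 1 of 9 (control replicates 1, 3, 4, 6 and 7, 30 mg/kg replicates 1, 2 and 4, 20 mg/kg replicate 7), with up to 0.1055.

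Ccl19, which draws naive T cells and dendritic cells bearing Ccr7, ran from 8.06 through 8.73 to 9.002 in controls and from 8.27 through 8.52 to 8.87 at 20 mg/kg. The 30 mg/kg libraries stood at 7.42, 8.04, 5.60 and 5.87. All 4 were below the lowest control, and replicates 3 and 4 were far below replicates 1 and 2. The change was -1.88 (SE 0.36, adjusted p = 0.00431), and -0.86 (adjusted p = 0.1322) without replicates 3 and 4. Its receptor Ccr7 averaged 5.54 ± 0.29, 5.35 ± 0.16 and 5.80 ± 0.22 in controls, at 20 and at 30 mg/kg, with a change of 0.25 at 30 mg/kg (adjusted p = 0.2761). The other Ccr7 ligand, Ccl21, averaged 5.11 ± 0.48, 4.73 ± 0.63 and 4.56 ± 0.36, and several near-identical copies of that gene may share its probes.

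Ccl3 (MIP-1 alpha), a ligand of Ccr1 made by activated macrophages, rose most. Controls ran from 3.81 through 4.73 to 5.56 and the 20 mg/kg libraries from 5.16 through 5.49 to 5.72. The 30 mg/kg libraries stood at 6.51, 5.16, 8.96 and 8.86, with replicate 2 inside the control range. The change was 2.77 (SE 0.53, adjusted p = 0.004512), and 1.28 (adjusted p = 0.1483) without replicates 3 and 4. Its close relative and neighbour Ccl4 averaged 4.66 ± 0.30 in controls and 4.49 ± 0.42 at 30 mg/kg (change -0.16, adjusted p = 0.7431), and its receptor Ccr1 4.73 ± 0.43 and 4.36 ± 0.24 (change -0.37, adjusted p = 0.4497).

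Cxcl2 and Cxcl1 are neutrophil attractants that act on Cxcr2. Their windows hold the overlapping kappaB matches printed above, and the Cxcl6 window holds such a pair too, from base -88. Cxcl2 ran from 3.45 through 3.74 to 3.92 in controls and from 3.45 through 3.62 to 4.06 at 20 mg/kg, and stood at 3.94, 4.21, 6.16 and 6.03 at 30 mg/kg. Only replicates 3 and 4 were above the array median. The change was 1.39 (SE 0.32, adjusted p = 0.01299), and the call was lost without replicate 4 (1.08, adjusted p = 0.09217) and without both (0.38, adjusted p = 0.2985). Cxcl1 had 4.92, 4.97 and 5.65 in controls, 4.84, 4.95 and 5.23 at 20 mg/kg, and 5.23, 4.97, 7.66 and 7.12 at 30 mg/kg. The same 2 libraries were high, but the change of 1.10 did not pass (SE 0.38, adjusted p = 0.08239).

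Cxcl3 and Cxcl6, the further Cxcr2 ligands measured, stayed dim in these 2 libraries, at 3.70 and 3.97 for Cxcl3 and 3.56 and 3.60 for Cxcl6. Cxcl1, Cxcl2 and Cxcl3 are similar enough in sequence that cross-hybridisation cannot be judged from these values. Cxcr2 itself stood at 3.77, 3.88, 4.84 and 4.81 at 30 mg/kg, with 3.76, 4.03 and 4.30 in controls, and its change of 0.35 did not pass (adjusted p = 0.2616). Cxcr1 averaged 4.36 ± 0.16 in controls and 4.43 ± 0.21 at 30 mg/kg. The mean of 8 neutrophil markers was 4.31, 4.33, 5.25 and 4.88 at 30 mg/kg against 4.16 to 4.59 in controls, high in the same replicates 3 and 4, and 0 of the 8 passed at 30 mg/kg (3 at an unadjusted p under 0.05). The part of these cells in the ligand values was not tested.

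Ccr10, a receptor of skin- and gut-homing lymphocytes, ran from 4.78 through 5.03 to 5.43 in controls and stood at 5.76, 5.51, 5.35 and 5.40 at 30 mg/kg. Replicates 1 and 2 were above the controls and the others within them. The change of 0.41 (SE 0.12, adjusted p = 0.04814) was at the edge of the threshold, and leaving out any 1 of 14 of the 17 libraries ended the call, with an adjusted p of up to 0.1241. The exceptions were control replicates 1 and 2 and 20 mg/kg replicate 10. Its ligands Ccl27 and Ccl28 averaged 6.23 ± 0.55 and 4.34 ± 0.18 in controls, 6.34 ± 0.17 and 4.28 ± 0.31 at 20 mg/kg, and 6.15 ± 0.55 and 4.52 ± 0.22 at 30 mg/kg.

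**Figure D3:**
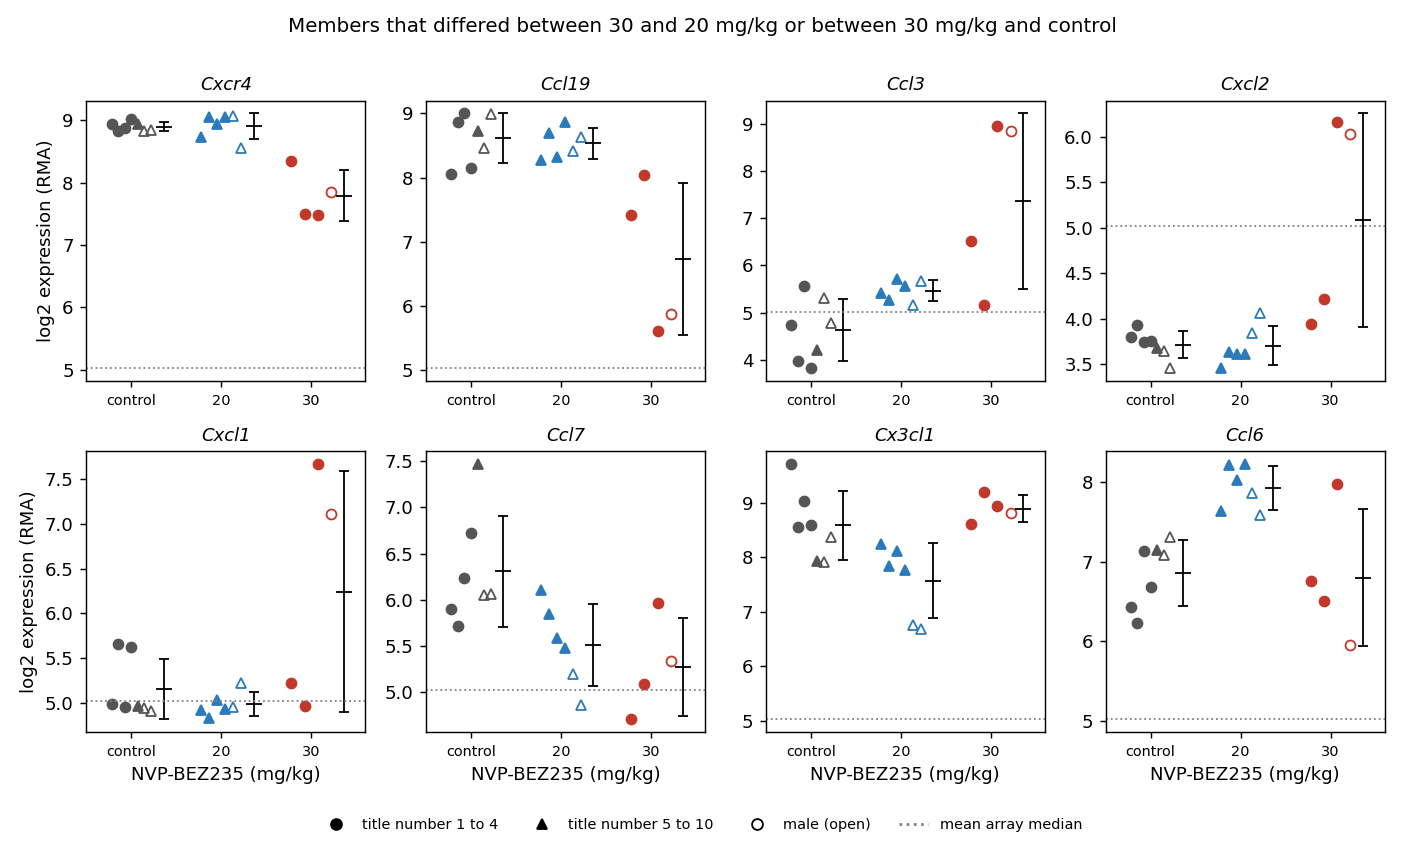
Log2 value per library of 8 members that differed between 30 mg/kg and control or between 30 and 20 mg/kg. The mean and SD of each group are drawn (7 controls, 6 at 20 mg/kg, 4 at 30 mg/kg). Circles are replicates 1 to 4, triangles 5 to 10, and open symbols males. All 4 Cxcr4 points at 30 mg/kg lie below the other libraries, whereas Ccl3, Cxcl2 and Cxcl1 split into 2 high and 2 low points.

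Between the doses, 8 of 49 members differed (16.3%), a share near that of all genes, of which 12.1% were called (8.16% lower and 3.92% higher at 30 than at 20 mg/kg). Of the called genes 67.5% were lower, against 50.9% after quantile normalization and 50.6% after median centring. Ccl11, Ccl19, Cxcr4 and Ccl6 were lower at 30 mg/kg, and Ccl3, Cxcl2, Cxcl1 and Cx3cl1 were higher. The dose and the set of replicate numbers cannot be told apart in treated libraries. The differences were -2.67 for Ccl11 (SE 0.67, adjusted p = 0.01885), -1.82 for Ccl19 (SE 0.37, adjusted p = 0.007958) and -1.12 for Cxcr4 (SE 0.15, adjusted p = 0.001574). They were 1.96 for Ccl3 (SE 0.55, adjusted p = 0.02929), 1.41 for Cxcl2 (SE 0.33, adjusted p = 0.01388) and 1.28 for Cxcl1 (SE 0.39, adjusted p = 0.04375). Without 30 mg/kg replicate 4 (321 genes), or without both replicates 3 and 4, Cxcr4 was the 1 member that passed. Without 30 mg/kg replicate 3, 20 mg/kg replicate 6 or 20 mg/kg replicate 8, 5 members passed, and without 20 mg/kg replicate 10 there were 11.

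For Cx3cl1 and Ccl6 the means of the 2 control sets differed in the same direction as the doses, with an overlap of the sets for Ccl6. Cx3cl1 was 8.56 to 9.71 in controls 1 to 4 and 7.91 to 8.37 in controls 5 to 7, and Ccl6 was 6.22 to 7.13 and 7.09 to 7.31. With sex as a term, controls 5 to 7 minus controls 1 to 4 gave -0.50 for Cx3cl1 (adjusted p = 0.4367) and 0.86 for Ccl6 (adjusted p = 0.1761). Cx3cl1 was 8.62, 9.21, 8.95 and 8.81 at 30 mg/kg, inside the control range and above every 20 mg/kg library. The difference was 1.26 (SE 0.28, adjusted p = 0.01072; 0.07227 without 30 mg/kg replicate 4). Ccl6 was 6.76, 6.50, 7.98 and 5.95 at 30 mg/kg, with replicate 3 among the 20 mg/kg libraries and replicate 4 the lowest of all 17. The difference was -1.14 (SE 0.30, adjusted p = 0.02441), and the call was lost without 30 mg/kg replicate 2 (0.06499) or 4 (0.1513) or without 20 mg/kg replicate 6 (0.05637) or 8 (0.05751).

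Single libraries carried other calls of this contrast. The Ccl11 call was lost without 30 mg/kg replicate 3 (adjusted p = 0.06203) or 4 (0.08078), the Ccl19 call without replicate 4 (0.05783), and the Cxcl2 call without replicate 4 (0.09261). Ccl3 lost it without 30 mg/kg replicate 3 (0.09206) or 4 (0.1644) or 20 mg/kg replicate 6 (0.05698), 8 (0.05169) or 9 (0.05761). Cxcl1 lost it without any 1 of 8 libraries (control replicate 3, 30 mg/kg replicates 3 and 4, and 20 mg/kg replicates 5 to 9), with an adjusted p of up to 0.2208. Members above the array median that passed in no comparison are given by group means. Cxcl14 averaged 7.48 ± 0.65 in controls, 7.47 ± 0.51 at 20 mg/kg and 8.25 ± 0.44 at 30 mg/kg. Cxcl16, the ligand of Cxcr6, averaged 7.13 ± 0.21, 6.96 ± 0.30 and 7.24 ± 0.34, Cxcl17 5.48 ± 0.43, 5.25 ± 0.12 and 5.38 ± 0.33, and Xcl1, made by NK and T cells, 5.21 ± 0.19, 5.01 ± 0.27 and 5.20 ± 0.12.

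**Figure D4:**
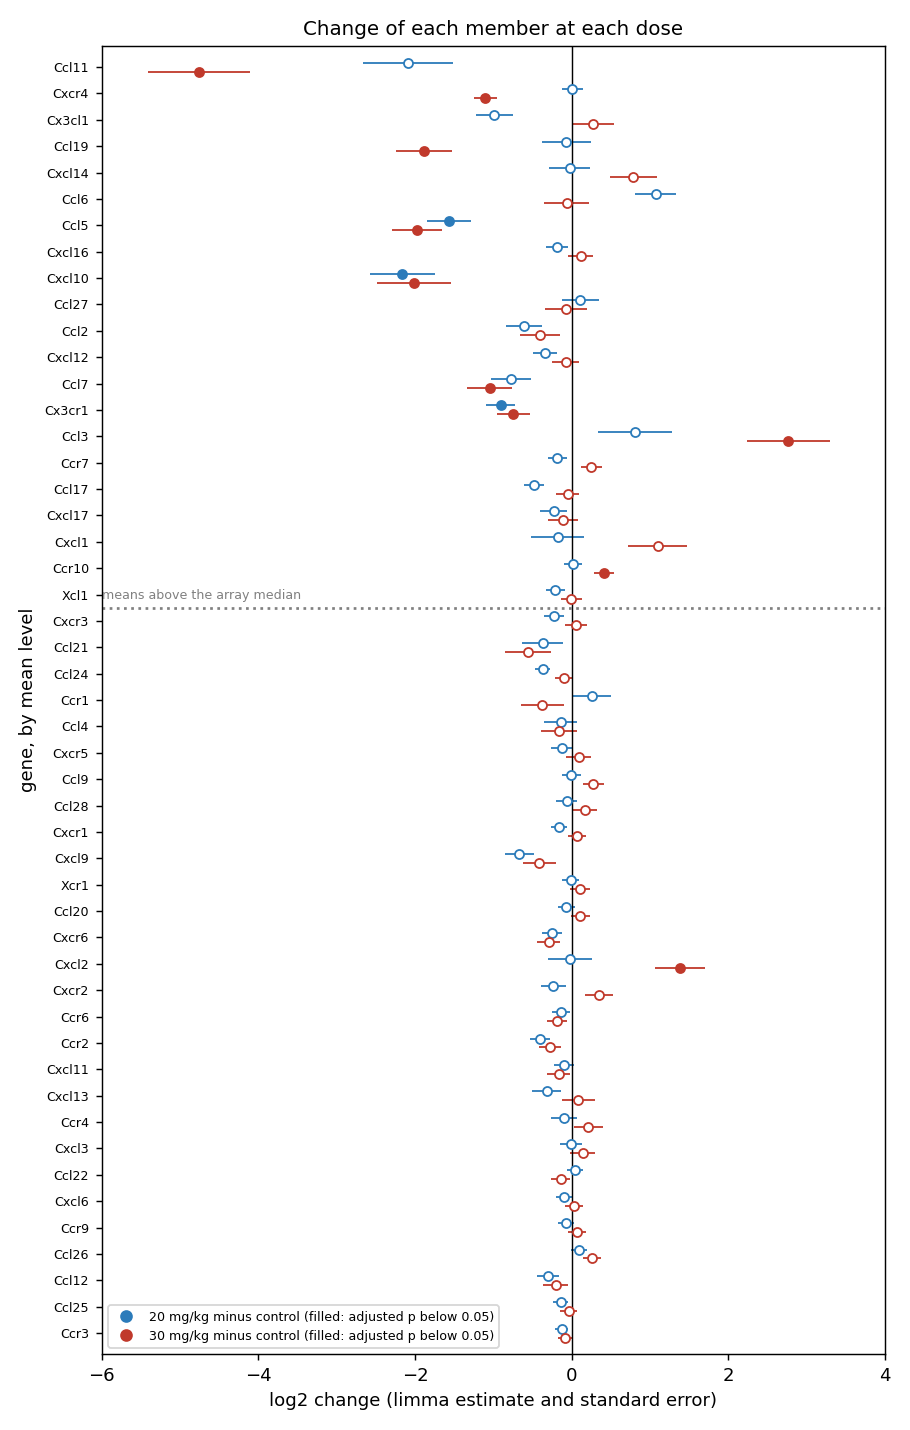
Log2 change of each of the 49 members against the 7 controls at 20 mg/kg (blue, 6 libraries) and 30 mg/kg (red, 4 libraries), as limma estimates with standard errors, ordered by mean level; filled points have an adjusted p below 0.05. Most members lie within 1 of 0, Ccl11 reaches -4.76 at 30 mg/kg, and Cxcr4 and Ccl19 are near 0 at 20 mg/kg only.

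Each dose was also set against the controls that share its replicate numbers, in a fit of 4 groups. At 20 mg/kg against controls 5 to 7, Ccl5 passed (-1.91, SE 0.36, adjusted p = 0.02826), 1 of 49 members with 0.358% of all genes called. At 30 mg/kg against controls 1 to 4, 5 members passed with 3.01% of all genes called. They were Ccl11 (-4.02, adjusted p = 0.007271), Cxcr4 (-1.10, 0.004814), Ccl5 (-1.72, 0.01775), Ccl19 (-1.71, 0.03639) and Ccl3 (2.67, 0.0307). Cxcl10 kept its size at -2.15 and -2.02 but did not pass in either (0.1539 and 0.06263).

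The difference between these 2 effects is the test of whether the doses acted unequally, and 0 of 49 members and 0% of all genes passed it in limma. At an unadjusted p under 0.05 there were 7 members, Cxcl3, Cxcr4 and Ccl19 below 0 and Ccl24, Ccr2, Cxcl14 and Xcl1 above, and 971 genes (6.7%). Cxcr4 came closest by p (difference -1.12, SE 0.26, adjusted p = 0.5227), and it passed without 30 mg/kg replicate 1 (adjusted p = 0.0375). For members called between the doses the size mostly shrank in this test, with no adjusted p under 0.5227. The fit has 1 sex term for all groups, and controls 1 to 4 were all female. The choice of controls and the adjustment for sex are therefore not separated in these sizes. The direct difference of -2.67 for Ccl11 became -0.95 (SE 0.995), that of -1.14 for Ccl6 became -0.30 (SE 0.44), and that of 1.28 for Cxcl1 became 0.67 (SE 0.63). Cxcl2 went from 1.41 to 0.88 (SE 0.53) and Cx3cl1 from 1.26 to 0.77 (SE 0.435), while Ccl19 gave -1.41 (SE 0.605) and Ccl3 1.74 (SE 0.92). For Ccl11, with sex as a term in limma, controls 5 to 7 were above controls 1 to 4 by 1.77 (SE 0.81, adjusted p = 0.2236). Without that term their plain means lay close, at 10.82 and 10.51, and their ranges overlapped. The plain Ccl11 means were 8.48 at 20 mg/kg and 5.94 at 30 mg/kg. For Cxcl3 the 2 control sets did not overlap, at 3.79 to 4.19 in replicates 1 to 4 and 3.25 to 3.33 in replicates 5 to 7.

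Genes around the chemokine system were read from lists. For scale, 1.48% of all genes passed in treated against control, 0.965% as lower, and 3.66% passed as higher at 30 mg/kg. On the receptor signalling list 1 of 19 fell, Rac2 (-0.77, adjusted p = 0.02462), a leukocyte GTPase of chemotaxis. Of 15 NF-kappaB and early cytokine genes, 0 passed with 1 at an unadjusted p under 0.05 (Nfkbia, 0.49, adjusted p = 0.06836), and of 13 on the type 2 and STAT6 list, whose signals are known to induce Ccl11, 0 passed with 3 (Il1rl1, -0.23, adjusted p = 0.1523). Of 7 atypical receptors and other chemokines, 0 passed with 0 (Cklf, -0.31, adjusted p = 0.463).

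In the 30 mg/kg libraries, 3 of 15 NF-kappaB and early cytokine genes rose (Rela, Icam1 and Birc3, by 0.72, 0.64 and 0.48, adjusted p = 0.01081, 0.01942 and 0.04975) and 0 fell, with a median of 0.34. The list's mean per library was 5.91, 5.66, 6.17 and 6.21 there, against 5.61 to 5.80 in controls. It was highest in replicates 3 and 4, where Ccl3, Cxcl2, Cxcl1 and the neutrophil marker mean were high too. The part of NF-kappaB in the values of these members was not tested. Of the scavenger and platelet members of the atypical list, Ackr3, a second receptor of Cxcl12, rose by 0.99 (adjusted p = 0.01932), and Pf4, a platelet and macrophage chemokine, fell by 1.46 (adjusted p = 0.008985).

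T and NK cell markers moved with Ccl5 and Cxcl10. Of 16, 15 were lower in treated libraries and 2 passed, Cd2 (-0.49, adjusted p = 0.01042) and Cd3d (-0.99, adjusted p = 0.04459), with a list median of -0.38. The mean per library was 4.33 to 4.59 in controls, 4.09 to 4.20 at 20 mg/kg and 4.09 to 4.15 at 30 mg/kg, without overlap, and 2 of the 16 lay above the array median. Within groups the match was partial. Control replicate 2 was the lowest control for Ccl5, Cxcl10 and this mean, but replicates 6 and 7, the next lowest controls for Cxcl10, had means of 4.59 and 4.54. Replicate 4 at 30 mg/kg had the highest treated value of Cxcl10 and a mean of 4.09, at the low end of all libraries. The part of these cells in the fall of Ccl5 and Cxcl10 was not tested.

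Monocyte and macrophage markers, which could carry Cx3cr1, gave 0 of 14 calls in treated against control (5 at an unadjusted p under 0.05; Aif1, -1.04, adjusted p = 0.1209). Their mean was 6.66 to 7.04 in controls, 6.63 to 7.10 at 20 mg/kg and 6.36 to 7.15 at 30 mg/kg, where Aif1, C1qa and Csf1r fell. Ccl6 and this mean were both highest of the 30 mg/kg group in replicate 3. At 30 relative to 20 mg/kg, 4 of these 14 markers were called lower, against 8.16% of all genes. Of 10 fibroblast and pericyte markers, a source of Ccl11 in many tissues, 1 passed as lower (Col3a1, -0.68, adjusted p = 0.006438). In sign 8 of the 10 were lower (median -0.30), and 6 had an unadjusted p under 0.05. Their mean per library was 7.18 to 7.50 in controls, 6.85 to 7.27 at 20 mg/kg and 6.88 to 7.15 at 30 mg/kg. The part of these cells in the fall of Ccl11 was not tested. Of 10 endothelial markers 1 rose (Flt1, 0.74, adjusted p = 0.03349). At 30 mg/kg all 10 endothelial markers were higher than in controls (median 0.54) and 4 passed, Flt1 (1.09, adjusted p = 0.000999), Eng (1.296, 0.0025), Cdh5 (0.54, 0.01218) and Emcn (0.60, 0.03353). Their mean per library was 7.10 to 7.76 in controls, 7.43 to 7.69 at 20 mg/kg and 7.87 to 8.15 at 30 mg/kg, without overlap of the last with the others. Cxcr4 was lower in these same 4 libraries. Cx3cl1, an endothelial ligand, was higher there than at 20 mg/kg but inside the control range. The part of endothelial cells in the values of Cxcr4 and Cx3cl1 was not tested. Among the fibroblast and pericyte markers Col3a1 and Rgs5 fell at 30 mg/kg and Pdgfra rose.

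In treated against control, no call came from 3 B cell, 6 dendritic, 8 neutrophil, 7 chromaffin, 7 adrenal cortex or 7 pituitary genes, of which Cd79b (-0.10, adjusted p = 0.8021), Clec10a (-0.28, 0.5031), Fcnb (-0.34, 0.1767), Th (0.32, 0.1964), Mc2r (-1.05, 0.08295) and Prl (-0.91, 0.475) had the smallest p of their lists, and Kit (0.34, 0.4885) that of the eosinophil and mast cell list. Other comparisons did call genes of these lists, named after their values were seen. Mc2r fell at 20 mg/kg, and at 30 relative to 20 mg/kg Mc2r, Cyp21a1, Zbtb46 (dendritic) and Csf3r (neutrophil) were higher and Slc18a1 (chromaffin) lower. The part of these cells in the members' values was not tested.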

How the data were processed

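RNA of 17 tumour libraries was measured on Affymetrix rat arrays. The deposited log2 values were summarised by the authors with RMA in Affymetrix Expression Console 1.3.0.187, per the submitters' processing notes, so background correction and quantile normalization precede every value here. Genome build and array annotation date are not given in the sources used here. Of 29214 probe sets, 15310 carried 1 symbol and 323 several; for each of 14506 genes the probe set with the highest mean was kept. All 49 members matched a RefSeq gene ID, and 38 a RefSeq promoter (GRCr8).

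The values were tested with limma 3.58.1 in R 4.3.3 (lmFit, eBayes, two-sided), with sex as a term and Benjamini-Hochberg adjustment over all genes at 0.05. Fits held 2 groups (treated, control), 3 (control and each dose) or 4 (controls split by replicate number). The procedure was checked on simulated data. Members past the threshold in any comparison, or at an unadjusted p under 0.05 in treated against control, were given by library. List genes were named where they passed in treated against control, otherwise by the smallest p. The members and lists were chosen with earlier results of these data known. One list is not reported here. Alternatives changed the sex term, sexes used, normalization, centring, filter, probe set rule, array weights, variance model, replicate block, controls used and single libraries.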

Additional observations from a re-analysis of the deposited data

Results flagged for a closer look

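In 3 of 147 groups of 4 to 7 libraries (2.0%), 1 library stood far from the rest of its group, where chance flags about 1 group in 20. Ccl21 was 5.97 in 20 mg/kg replicate 8, with the next highest of the 6 libraries at 4.648. Cxcl14 was 6.118 in control replicate 3, with the next lowest of 7 at 7.503. Cxcr1 was 4.691 in control replicate 4, with the next highest of 7 at 4.424.

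For 8 members the change against the shared controls differed between the doses at an adjusted p of 0.05 in limma. At 30 minus 20 mg/kg it was -2.668 for Ccl11, -1.815 for Ccl19, -1.137 for Ccl6 and -1.115 for Cxcr4. It was 1.957 for Ccl3, 1.41 for Cxcl2, 1.276 for Cxcl1 and 1.261 for Cx3cl1. With each dose set against the controls of its own numbers, 0 of these 8 differences passed, 2 of them at an unadjusted p under 0.05 (Cxcr4 and Ccl19). Dose and the set of replicate numbers cannot be told apart in these libraries.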

How the results depend on the processing

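No member called in a comparison changed sign under any alternative run, while counts of calls moved. Treated against control (4 members, 215 genes) gave 7 members with array weights (424 genes), 6 with the replicate-number set as a term (712 genes), 3 without sex (100 genes), 1 in female rats alone (12 genes) and 2 to 6 with 1 library left out. The 20 mg/kg comparison (3 members, 171 genes) gave 11 with array weights (577 genes), 5 each after median centring, among genes above the array median and with a trended robust variance, 3 without sex (55 genes), 4 after quantile normalization (113 genes), 1 against controls 5 to 7 (52 genes), 0 in female rats alone (2 genes) and 0 to 5 with 1 library left out. The 30 mg/kg comparison (10 members, 1240 genes) gave 5 against controls 1 to 4 (437 genes), 4 in female rats alone (251 genes), 4 without both 30 mg/kg replicates 3 and 4 (155 genes) and 6 to 10 with 1 library left out. The doses (8 members, 1752 genes) gave 12 each after median centring and with array weights, 3 in female rats alone (405 genes), 1 without both replicates (51 genes) and 1 to 11 with 1 library left out. The difference of the doses, each against its own controls, gave 0 members under each alternative other than leaving out 1 library, where it gave 0 to 1. The cause of these moves was not tested beyond the fewer libraries that some settings hold.

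For same-numbered control and treated libraries, the correlations of their deviations from the group means ran from -0.183 to 0.085 over 7 pairs. Group means were taken out first, and a treated group is also a number set. These correlations therefore cannot show what a whole set of numbers shared. Between controls 5 to 7 and controls 1 to 4, 21.3% of all genes had an unadjusted p under 0.05 in limma. With the replicate number as a replicate block, 5 members passed in treated against control (231 genes), 0 at 20 mg/kg (0 genes) and 0 at 30 mg/kg (72 genes). The block fit with the doses apart had 4 residual degrees of freedom. Dim probe sets limit what can be seen for the 28 members below the array median.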
